A study of Sus scrofa with 19 samples.

Results

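The VEGF and angiopoietin ligands and receptors are the secreted factors and the receptor tyrosine kinases that blood and lymphatic vessels use to grow, to branch and to stay closed. Of 10 listed members, 8 were found by symbol in the annotation of the authors and were counted in all 19 libraries: the ligands VEGFA, VEGFC, ANGPT1 and ANGPT2 and the receptors FLT1, KDR, FLT4 and TEK. The other 2, VEGFB and PGF, were not analysed here, because no counted gene carried their symbol. The count files held 25879 genes, of which 13552 passed the filter on low counts and were tested, all 8 members among them.

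VEGFA is made by muscle and connective tissue cells, the more so when oxygen is short, and acts on endothelial cells through KDR, the main signalling receptor, while FLT1 binds it tightly and signals weakly. VEGFC acts mainly through FLT4 on lymphatic endothelium. ANGPT1, from mural and mesenchymal cells, activates TEK (also called TIE2) and keeps vessels quiet, and ANGPT2, stored and released by endothelial cells, can oppose it. In the heart, capillaries lie along nearly every cardiomyocyte, and the receptors are mostly transcribed in endothelium.

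The tissue was myocardium of female large white pigs, with 1 library per pig. DOX (n = 5) received doxorubicin and MYO (n = 5) its liposomal form, Myocet, both at 60 mg/m2 in 3 cycles, and the anterior wall was taken at 3 months, with data taken over from an earlier study whose drug arms were ended early because the animals were unwell. RemoLV (n = 3) underwent a 90 min balloon occlusion of the left anterior descending artery with reperfusion, and the posterior wall, away from the infarct, was taken at 6 months. Hyper (n = 3) carried a stent-made narrowing of the aortic isthmus, and Control (n = 3) was described as sham-operated in one source and untreated in another. Both gave anterior wall at 6 months. The sources used here give no age in numbers and describe the Control pigs as matched in age and those given a stent as juvenile. Library totals ran from 9527710 to 20370209 counts, and levels below are in CPM, the usual depth-scaled count, with TMM scaling between libraries.

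The libraries conflicted with their names in 3 ways. First, 8 of the 19 sample columns in the authors' expression table matched a count file labelled for another group: all 3 Control and all 3 RemoLV files were exchanged, and DOX5 was exchanged with MYO1, while the best match to any other file reached a correlation of at most 0.992. Groups here follow the labels of the count files, and results are repeated with the table names. Second, in the 3 libraries labelled RemoLV, MYL2, the light chain of ventricular muscle, was at 18.6 to 115 CPM against at least 8975 in every other library, and MYL4, the atrial light chain, was at 6029 to 8130 CPM against at most 21.9. These markers go against a left ventricular label. In addition, the Y-linked gene DDX3Y was at 96.1 to 177 CPM in all 10 DOX and MYO libraries and at no more than 0.137 CPM elsewhere, against the label of female animals. Drug, study, follow-up time and the Y-linked signal therefore cannot be told apart in any comparison of DOX and MYO with the rest. PECAM1, an endothelial adhesion protein, was at 187 to 362 CPM, so that endothelium was present in every library. The summed endothelial markers, 11 of 12 with a row and 1 of these at 3 counts or fewer in every library, were at 959 to 1274 CPM in DOX and MYO, 950.4 to 1189 in Hyper and Control and 803 to 871 in RemoLV. In bulk tissue, fewer cells of a type and less RNA per cell cannot be told apart.

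Per length, as CPM per kilobase of RefSeq exon, the members spanned a wide range. The median level over the 19 libraries was 83.6 for VEGFA, 12.9 for KDR, 10.4 for FLT1, 8.59 for TEK, 1.91 for ANGPT2, 1.11 for VEGFC, 0.768 for FLT4 and 0.357 for ANGPT1. VEGFA stood above every other member in every library, with its lowest level (51.7) higher than the highest of KDR (23.3). The 3 receptors of blood vessel endothelium were neighbours whose ranges overlapped: 6.42 to 23.3 for KDR, 6.50 to 19.8 for FLT1 and 6.35 to 11.3 for TEK. FLT4 and ANGPT1 had the lowest medians, though within RemoLV VEGFC was lowest, and ANGPT1 rested on only 6 to 66 counts per library.

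The members passed the test in the comparisons with Control about as often as other genes did. The 4 comparisons with Control share the same 3 Control libraries. With the quasi-likelihood test of edgeR at an adjusted p of at most 0.05, 3 of 8 members differed for DOX vs Control (42.1% of all genes tested), 3 for MYO vs Control (42.4%) and 4 for RemoLV vs Control (47.2%). For Hyper vs Control no member and 0.0% of genes passed, with 2 members and 2418 genes at an unadjusted p under 0.05, and DESeq2 called 1 member and 311 genes. For DOX vs MYO no member and 0.0% of genes passed, with 1 member and 960 genes at an unadjusted p under 0.05, and DESeq2 called 0 members and 2 genes. For RemoLV vs Hyper 2 members passed (35.6% of genes). The last 3 comparisons are of sets of libraries by file label. Only DOX and MYO vs Hyper keeps its libraries under the table names; in the other 2 the libraries called Control and RemoLV here carry each other's name in the table. In these comparisons 5 of 8 passed for DOX and MYO vs Hyper (32.6%), 5 for DOX and MYO vs Hyper and Control (50.7%) and 3 for RemoLV vs the other 4 groups (40.2%). No member reached the absolute log2 fold change of 2 that the study required of a differentially expressed gene, the nearest being VEGFC for RemoLV vs Hyper (-1.98). Some alternatives passed it, such as ANGPT1 scaled by library totals for RemoLV vs Control (2.05, adjusted p = 0.0103) and RemoLV vs Hyper (2.26, adjusted p = 0.00962).

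Some members separated whole sets of libraries. For VEGFA and TEK, all 10 DOX and MYO libraries lay on one side of all 9 others, which 3.11% of the genes tested did in either direction. For VEGFC and ANGPT1, the 3 RemoLV libraries lay beyond all 16 others, as 16.2% of genes did. Against the 3 Hyper libraries alone, 5 members (VEGFA, VEGFC, KDR, ANGPT2 and TEK) did not overlap with DOX and MYO, against 21.0% of genes. Scaled by library totals, TEK overlapped in both comparisons with DOX and MYO. VEGFC then overlapped in that with Hyper (6.50 to 11.8 against 10.2 to 15.1 CPM).

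**Figure D1:**
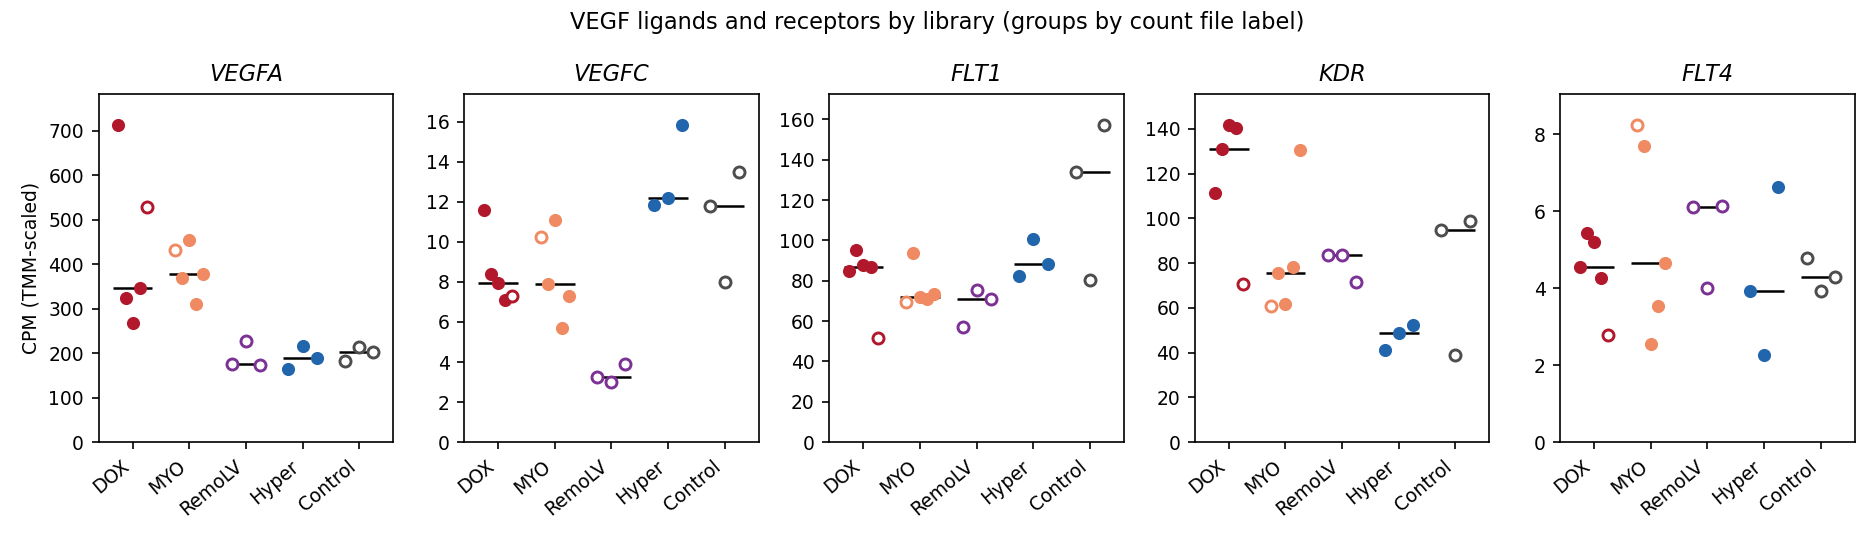
Level in TMM-scaled CPM (vertical axis, from 0, a scale of its own for each gene) of the VEGF ligands and receptors in each library (points), by the group label of the count file (horizontal axis), with the group median as a line. Open points are libraries that the authors' table names for another group, and all 10 DOX and MYO libraries stand above the other 9 for VEGFA while RemoLV stands below the other 16 for VEGFC.

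VEGFA was about 2-fold higher in the hearts of drug-treated pigs. It was at 713, 324, 268, 347 and 529 CPM in DOX1 to DOX5. In MYO1 to MYO5 it was at 432, 369, 455, 310.1 and 379 CPM. Every one of these exceeded the highest of the remaining libraries, RemoLV2 at 227 CPM. RemoLV held 176, 227 and 173 CPM, Hyper 165, 217 and 189 CPM, and Control 183, 214 and 202 CPM. Those 3 groups overlapped fully. VEGFA was 2.18-fold higher for DOX vs Control (log2 fold change 1.13 ± 0.24 (SE), adjusted p = 0.00151) and 1.95-fold higher for MYO vs Control (0.96 ± 0.24, adjusted p = 0.00426). Over DOX and MYO vs Hyper and Control the log2 fold change was 1.08 ± 0.17 (adjusted p = 6.09e-05), and vs Hyper alone 1.11 ± 0.23 (adjusted p = 0.00128). All 10 drug libraries stayed above the other 9 when scaled by library totals (277 to 715 against 135 to 249.7 CPM). This call held in each of 27 alternatives, with log2 fold changes of 0.94 to 1.41 for DOX and MYO vs Hyper and Control. With the table names the comparisons of DOX and of MYO with Control gave 1.12 and 1.09. DOX and MYO did not differ detectably (0.17, 95% interval -0.26 to 0.59, adjusted p = 0.893), and the interval holds differences of either sign. DOX1 was the highest library at 713 CPM, and without it the DOX vs Control value was 0.86 (adjusted p = 0.00213).

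Measured against the endothelium, VEGFA stayed higher in the drug groups than in Hyper and Control. Per 100 CPM of summed endothelial markers it was at 22.2 to 61.4 CPM in DOX and MYO and at 15.4 to 20.9 in Hyper and Control. RemoLV, whose endothelial markers were lowest, was at 20.2 to 27.5 and overlapped with the drug groups on this scale. Of the 6 fibroblast markers, 2 were higher for DOX and MYO vs Hyper and Control, the collagen genes COL1A1 (1.23, adjusted p = 1.11e-04) and COL3A1 (1.06, adjusted p = 1.09e-04), and DCN, LUM, TCF21 and PDGFRL did not pass (-0.09 to 0.28). Their sum, which follows the collagens, was at 3879 to 5843 CPM in DOX and MYO and 1336 to 3263 in Hyper and Control. It was highest in RemoLV, at 8825 to 10090 CPM, where VEGFA was low. For DOX and MYO vs Hyper and Control, 4 of 7 macrophage markers were higher and 1 lower. Of 8 tested cardiomyocyte genes of both chambers, 1 was higher and 5 lower, where 50.7% of all genes were called. The part of these markers in the VEGFA difference was not tested. VEGFA was also lower for RemoLV vs the other 4 groups (-0.56 ± 0.21, adjusted p = 0.0422), which include the high drug groups, a call that 9 of its 26 alternatives lost, among them library totals (-0.31, adjusted p = 0.232).

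VEGFC was scarcest in the 3 libraries labelled RemoLV, at 3.24, 2.99 and 3.92 CPM. All 16 other libraries held at least 5.71 CPM. Hyper held the most, at 11.8, 12.2 and 15.8 CPM, Control 11.8, 8.02 and 13.5 CPM, and DOX and MYO 5.71 to 11.6 CPM with a median of 7.92. These levels rest on 44 to 53 counts in each RemoLV library. VEGFC was 3.29-fold lower for RemoLV vs Control (-1.72 ± 0.26, adjusted p = 5.34e-05), 3.94-fold lower for RemoLV vs Hyper (-1.98 ± 0.26, adjusted p = 1.71e-05) and 3.01-fold lower for RemoLV vs the other 4 groups (-1.59 ± 0.22, adjusted p = 2.27e-05). The last call held in each of 26 alternatives, at -1.70 to -1.32. With the table names RemoLV vs Hyper, there with the libraries labelled Control here, was -0.26 (adjusted p = 0.57). That naming gives the 3 libraries labelled RemoLV here to Control. VEGFC then became higher for DOX vs Control (1.43, adjusted p = 2.12e-04), MYO vs Control (1.23, adjusted p = 8.04e-04) and Hyper vs Control (1.98, adjusted p = 1.22e-05). In the 3 libraries labelled RemoLV the low VEGFC moved with low ventricular markers, which summed to 25020 to 29130 CPM over 4 of 4 genes, 1 of them at 3 counts or fewer in all 3 libraries, against 44910 to 74430 elsewhere. Chamber and model cannot be told apart there.

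Between the drug groups and the ventricular libraries of the other pigs VEGFC differed less. It was 1.43-fold lower for DOX and MYO vs Hyper and Control (-0.52 ± 0.15, adjusted p = 0.00931) and 1.57-fold lower vs Hyper (-0.65 ± 0.19, adjusted p = 0.0146). Scaled by library totals alone these were -0.17 (adjusted p = 0.358) and -0.40 (adjusted p = 0.101), and the second was also lost without Hyper replicate 3 (-0.50, adjusted p = 0.0963). The ratio of VEGFA to VEGFC counts, which no scaling affects, was 33.8 to 72.4 in DOX and MYO and 12.0 to 26.7 in Hyper and Control, without overlap. In RemoLV it was 44.1 to 75.9, there with VEGFA at the level of Control and VEGFC at its lowest. The single library DOX1 held the most VEGFC of the DOX group, at 11.6 CPM.

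KDR, the receptor that carries most VEGFA signalling in endothelium, was higher in the drug groups than in Hyper. It was at 112, 131, 142, 140.4 and 70.7 CPM in DOX and at 60.7, 75.5, 61.6, 78.4 and 131 CPM in MYO. Hyper held 41.2, 48.8 and 52.4 CPM, below all 10. Control was split, with 94.9 and 98.7 CPM in replicates 1 and 3 and 39.0 in replicate 2, and RemoLV held 83.7, 83.5 and 71.5 CPM. KDR was 2.07-fold higher for DOX and MYO vs Hyper (1.05 ± 0.27, adjusted p = 0.00688) and 1.62-fold higher vs Hyper and Control (0.70 ± 0.20, adjusted p = 0.00845). The first call was lost without Hyper replicate 1 (0.96, adjusted p = 0.0526). Neither DOX vs Control (0.62 ± 0.29, adjusted p = 0.0900) nor MYO vs Control (0.07 ± 0.28, adjusted p = 0.864) passed, and DOX vs Control did when scaled by library totals (1.12, adjusted p = 0.00264) or without DOX replicate 5 (0.76, adjusted p = 0.0347). DOX vs MYO gave the only unadjusted p under 0.05 among the members (0.55, 95% interval 0.04 to 1.07, adjusted p = 0.699). Both libraries whose names are exchanged, DOX5 at 70.7 CPM and MYO1 at 60.7 CPM, lay in the lower range, and MYO5 lay with the DOX libraries.

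FLT1, the tight-binding receptor, went the other way. Control held 134, 80.2 and 157 CPM, Hyper 82.2, 101 and 88.5 CPM, DOX 84.9, 95.4, 87.8, 86.7 and 51.6 CPM, MYO 69.2, 93.7, 71.9, 70.9 and 73.2 CPM, and RemoLV 57.2, 75.6 and 71.1 CPM. Only RemoLV was below every Control library. FLT1 was 1.52-fold lower for DOX vs Control (-0.61 ± 0.19, adjusted p = 0.0179), 1.63-fold lower for MYO vs Control (-0.71 ± 0.19, adjusted p = 0.00711) and 1.82-fold lower for RemoLV vs Control (-0.86 ± 0.22, adjusted p = 0.00380). The calls for DOX and MYO were lost without Control replicate 3 (-0.40, adjusted p = 0.164, and -0.50, adjusted p = 0.0818), and that for DOX also without Control replicate 1 (-0.55, adjusted p = 0.0686). The call for RemoLV held with each of the 19 libraries left out in turn. In that comparison 4 of 10 endothelial markers were lower and 0 higher, with a median of -0.33, where 47.2% of all genes were called. Per 100 CPM of summed endothelial markers FLT1 was at 6.57 to 9.19 CPM in RemoLV and 7.83 to 13.8 in Control, with overlap, and the part of the markers in the difference was not tested. Scaled by library totals they were -0.13, -0.24 and -0.30 and none of the 3 passed, with adjusted p between 0.176 and 0.551. With the table names the values became 0.32 and 0.09 for DOX and MYO. The RemoLV vs Control value changed sign to 0.86 (adjusted p = 0.00277), as the exchange of those names fixes. No difference was detected for DOX and MYO vs Hyper (-0.21, 95% interval -0.57 to 0.16, adjusted p = 0.387). For DOX and MYO vs Hyper and Control FLT1 was lower (-0.43, adjusted p = 0.0142), a call that held in 24 of 27 alternatives. It was lost with library totals (-0.06, adjusted p = 0.677), with the replicate block and without Control replicate 3 (-0.33, adjusted p = 0.0651).

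Within a library, the ratio of KDR to FLT1 counts separated 6 libraries from the other 13. It was 0.484 to 0.592 in Hyper and 0.487 to 0.708 in Control. In DOX it was 1.31 to 1.62, in MYO 0.806 to 1.78, and in RemoLV 1.00 to 1.46. The lowest of these 13, MYO2 at 0.806, was above Control1 at 0.708, the highest of the 6. The ratio of VEGFA to FLT1 counts was 3.05 to 10.3 in DOX and MYO and 1.28 to 2.67 in Hyper and Control, with RemoLV at 2.43 to 3.08, overlapping both. All ratios between members given here were formed after the members' levels were known, so they are given as descriptions, without a test.

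**Figure D2:**
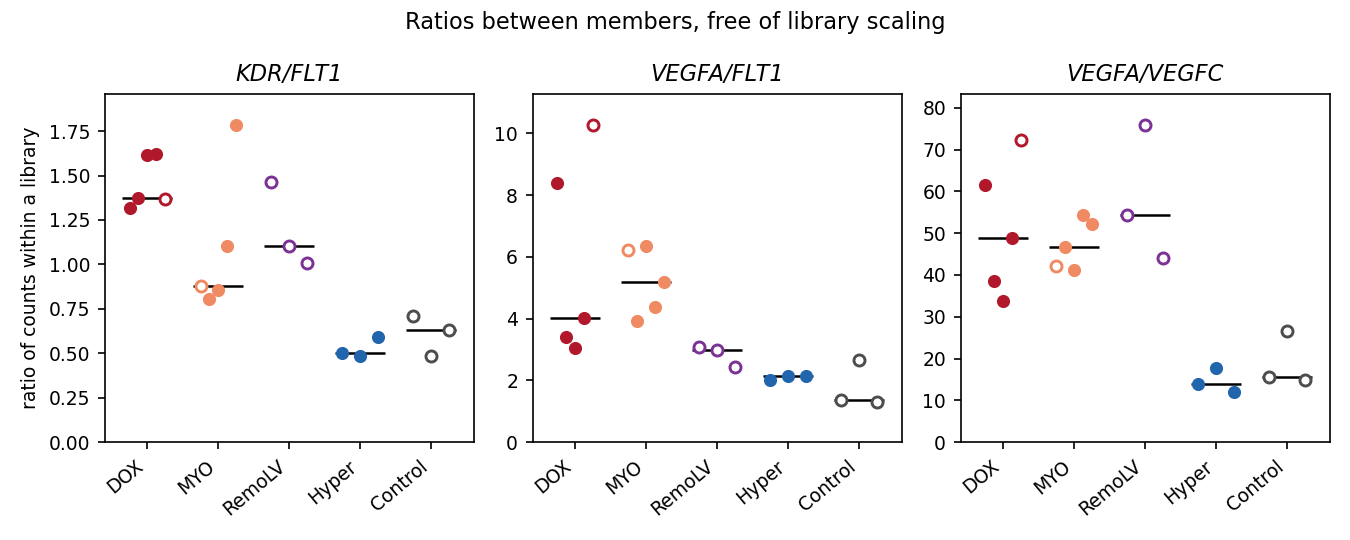
Ratios of raw counts within each library (vertical axis, no unit, from 0) for KDR to FLT1, VEGFA to FLT1 and VEGFA to VEGFC, by the group label of the count file, with the group median as a line and open points for libraries that the authors' table names for another group. The Hyper and Control libraries are below all others for KDR to FLT1, at 0.484 to 0.708, and for VEGFA to VEGFC, while for VEGFA to FLT1 RemoLV overlaps with Control and with DOX.

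FLT4, the VEGFC receptor of lymphatic endothelium, passed in no comparison and in none of its alternatives. It was at 2.77 to 5.43 CPM in DOX, 2.54 to 8.24 in MYO, 4.0 to 6.15 in RemoLV, 2.26 to 6.64 in Hyper and 3.92 to 4.78 in Control, and all groups overlapped. For RemoLV vs Control, where VEGFC was lower, FLT4 gave 0.32 with a 95% interval of -0.52 to 1.16, and for DOX and MYO vs Hyper and Control 0.18 (-0.36 to 0.72). These intervals leave room for changes of up to about 2-fold. PROX1, which sets lymphatic identity, was at 2.82 to 18.6 CPM, and the 6 lymphatic markers summed to 46.7 to 97.5 CPM over all libraries. None of the 6 was higher and 1 was lower for DOX and MYO vs Hyper and Control, where 50.7% of all genes were called.

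The bases before the start of the KDR and FLT4 genes are shown because these were the members whose windows held the GGGCGG box of SP1, and because the first differed between the drug groups and Hyper while the second passed nowhere. KDR lies at chr8:41809116-41856379 on the minus strand and FLT4 at chr2:78076008-78115137 on the plus strand of Sscrofa11.1 (RefSeq). The windows are the 250 bases upstream of each RefSeq gene start, chr8:41856380-41856629 (minus strand) and chr2:78075758-78076007 (plus strand), written 5′ to 3′, with capitals for the letters ACGTG or GCGTG (hypoxia response core), CCGGAA (ETS core) and GGGCGG on either strand.
KDR: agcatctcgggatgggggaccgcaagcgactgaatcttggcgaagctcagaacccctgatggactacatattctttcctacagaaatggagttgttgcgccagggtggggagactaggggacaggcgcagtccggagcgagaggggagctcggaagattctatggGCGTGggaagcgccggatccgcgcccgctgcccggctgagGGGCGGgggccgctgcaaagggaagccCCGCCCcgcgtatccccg
FLT4: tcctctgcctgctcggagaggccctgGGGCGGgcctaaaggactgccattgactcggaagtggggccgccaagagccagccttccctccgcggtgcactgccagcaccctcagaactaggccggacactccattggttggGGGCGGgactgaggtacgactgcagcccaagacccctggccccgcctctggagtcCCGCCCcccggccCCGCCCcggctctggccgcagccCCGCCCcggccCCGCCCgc
The KDR window held 1 hypoxia core, at -85 from the gene start, and 2 GGGCGG boxes, at -45 and -18, none of them overlapping. The FLT4 window held 6 GGGCGG boxes and neither of the other motifs. Of 19531 such windows of protein-coding genes, 43.5% held a hypoxia core, 13.6% an ETS core and 45.9% a GGGCGG box. In the windows of the other 6 members, 1 hypoxia core was found, at -70 of FLT1, and no ETS core or GGGCGG box. VEGFA, at chr7:38746393-38762282, and TEK, at chr1:195938177-196052294, had none of the 3. A RefSeq gene start need not be the start of transcription in these hearts, and a match of letters is not a binding site.

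**Figure D3:**
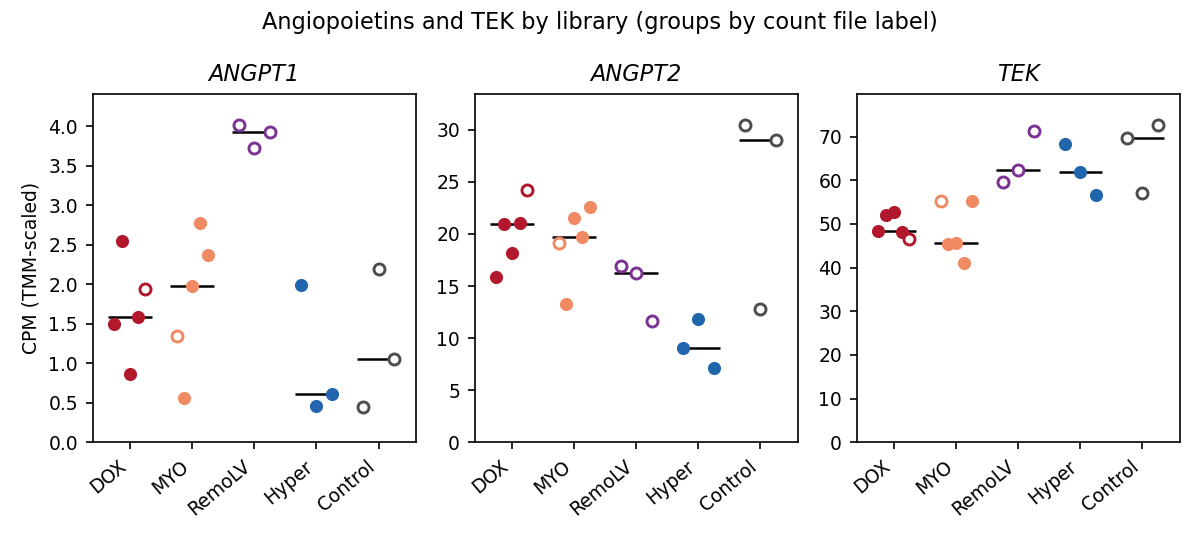
Level in TMM-scaled CPM (vertical axis, from 0, a scale of its own for each gene) of ANGPT1, ANGPT2 and TEK in each library (points), by the group label of the count file, with the group median as a line and open points for libraries that the authors' table names for another group. All 10 DOX and MYO libraries lie below the other 9 for TEK, and the 3 RemoLV libraries lie above the other 16 for ANGPT1.

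TEK, the angiopoietin receptor, was lower in the drug groups by a small but even amount. It was at 48.3, 52.1, 52.7, 48.1 and 46.6 CPM in DOX and at 55.4, 45.4, 45.6, 41.0 and 55.2 CPM in MYO. RemoLV held 59.6, 62.4 and 71.4 CPM, Hyper 68.4, 61.9 and 56.6 CPM, and Control 69.7, 57.1 and 72.6 CPM. The highest drug library (55.4 CPM) was just under the lowest other library (56.6 CPM). TEK was 1.34-fold lower for DOX vs Control (-0.42 ± 0.11, adjusted p = 0.00589) and 1.37-fold lower for MYO vs Control (-0.45 ± 0.11, adjusted p = 0.00353). Over DOX and MYO vs Hyper and Control it was 1.31-fold lower (-0.39 ± 0.08, adjusted p = 5.07e-04). The scaling decides this result. Scaled by library totals, the median gene stood at 0.37 on the log2 scale for DOX and MYO vs Hyper and Control, TEK was at -0.04 (adjusted p = 0.728), and its libraries overlapped. That scaling turned the 3490 genes called higher and 3382 called lower into 6422 and 982. Relative to the median gene TEK was at -0.41 with library totals, against a TMM value of -0.39 with the median gene at 0.03. TEK was therefore lower relative to most other genes, and not as a share of all counts.

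ANGPT1, the ligand that activates TEK, was highest in the 3 RemoLV libraries, at 4.01, 3.72 and 3.92 CPM from 57, 66 and 44 counts. Every other library held at most 2.77 CPM. Levels in DOX were 0.866 to 2.54, in MYO 0.554 to 2.77, in Hyper 0.452 to 1.99 and in Control 0.448 to 2.20 CPM, with as few as 6 counts in a library of Hyper and of Control. ANGPT1 was 2.76-fold higher for RemoLV vs the other 4 groups (1.47 ± 0.40, adjusted p = 0.00648), a call that held in each of its 25 alternatives. RemoLV vs Control gave 1.62 ± 0.57 (adjusted p = 0.0262), lost when Control replicate 1 (1.23, adjusted p = 0.111), Control replicate 3 (1.51, adjusted p = 0.0861), RemoLV replicate 1 (1.60, adjusted p = 0.0553) or RemoLV replicate 3 (1.61, adjusted p = 0.0519) was left out. RemoLV vs Hyper gave 1.92 ± 0.59 (adjusted p = 0.0157), lost without Hyper replicate 2 (1.57, adjusted p = 0.0732) or replicate 3 (1.64, adjusted p = 0.0650). With the table names, which exchange the libraries of RemoLV and Control, RemoLV vs Control turned to -1.62 and DOX vs Control became -1.31 (adjusted p = 0.0476). RemoLV vs Hyper, there with the libraries labelled Control here, was 0.30 (adjusted p = 0.826). ANGPT1 moved with the fibroblast markers, of which 4 of 6 were higher and none was lower for RemoLV vs the other 4 groups, where 40.2% of all genes were called. In that comparison 5 of 5 tested atrial markers were also higher and 4 of 4 ventricular markers lower. The part of all these markers in ANGPT1 was not tested. Chamber and model cannot be told apart in the 3 RemoLV libraries.

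ANGPT2, the ligand that endothelium releases when vessels are remodelled, was lowest in Hyper, at 9.00, 11.8 and 7.11 CPM. DOX held 15.8, 20.9, 18.2, 21.0 and 24.2 CPM and MYO 19.1, 13.3, 21.5, 19.7 and 22.6 CPM, all 10 above Hyper. RemoLV held 17.0, 16.2 and 11.7 CPM. Control was split again, with 30.4 and 29.1 CPM in replicates 1 and 3 and 12.8 in replicate 2. ANGPT2 was 2.11-fold higher for DOX and MYO vs Hyper (1.08 ± 0.24, adjusted p = 0.00239), and this held in each of 27 alternatives at 0.92 to 1.36. For Hyper vs Control ANGPT2 was 2.59-fold lower (-1.37 ± 0.28), which did not pass with edgeR (adjusted p = 0.0894). It was called in 3 of 28 alternatives. These were DESeq2 (-1.39, adjusted p = 0.00155) and edgeR without Control replicate 2 (-1.68, adjusted p = 2.84e-04) or without Hyper replicate 1 (-1.35, adjusted p = 0.0317). It was not called with library totals (-1.16, adjusted p = 0.154) or with the table names (-0.69, adjusted p = 0.0622). RemoLV vs Control passed narrowly (-0.68 ± 0.27, adjusted p = 0.0482) and lost the call in 17 of 27 alternatives, library totals among them (-0.12, adjusted p = 0.713). With the table names, which exchange these libraries, it turned to 0.68.

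The ratio of ANGPT2 to TEK counts, ligand to receptor, was 0.293 to 0.520 in DOX and MYO, 0.125 to 0.191 in Hyper, 0.164 to 0.284 in RemoLV and 0.224 to 0.437 in Control. DOX and MYO did not overlap with Hyper on this ratio, which follows from ANGPT2 alone being higher and TEK alone lower in every drug library. They did not overlap with RemoLV either. The ratio of ANGPT2 to ANGPT1 counts was lowest in RemoLV, at 2.98 to 4.36 against 4.52 to 68.0 in the other 16 libraries.

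Control replicate 2 stood apart from the other two across all genes, with a mean chi-square of 100.8 and 128 against replicates 1 and 3, which differed from each other by 14.7. Control replicates 1 and 3 were high in FLT1, KDR and ANGPT2, and replicate 2 lay below all Hyper libraries in FLT1 and KDR and just above them in ANGPT2. The TMM factors of replicates 1, 2 and 3 were 0.735, 0.965 and 0.696. With TMM replicate 2 was also the lowest Control library in TEK and VEGFC and the highest in ANGPT1. By library totals it was the highest of Control in TEK, at 55.1 CPM against 51.2 and 50.6. The red blood cell gene HBB was split in the same way, at 337 and 325 CPM in replicates 1 and 3 and 35.1 in replicate 2, and its part in these levels was not tested. Without Control replicate 2, 3 members passed for Hyper vs Control, all of them lower: FLT1 (-0.69, adjusted p = 0.0244), KDR (-1.03, adjusted p = 0.0190) and ANGPT2, while the share of all genes called in that comparison went from 0.0% to 18.4%. The same omission gave 5 members for DOX vs Control (44.7% of all genes), 5 for MYO vs Control (45.8%) and 4 for RemoLV vs Hyper (39.3%).

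**Figure D4:**
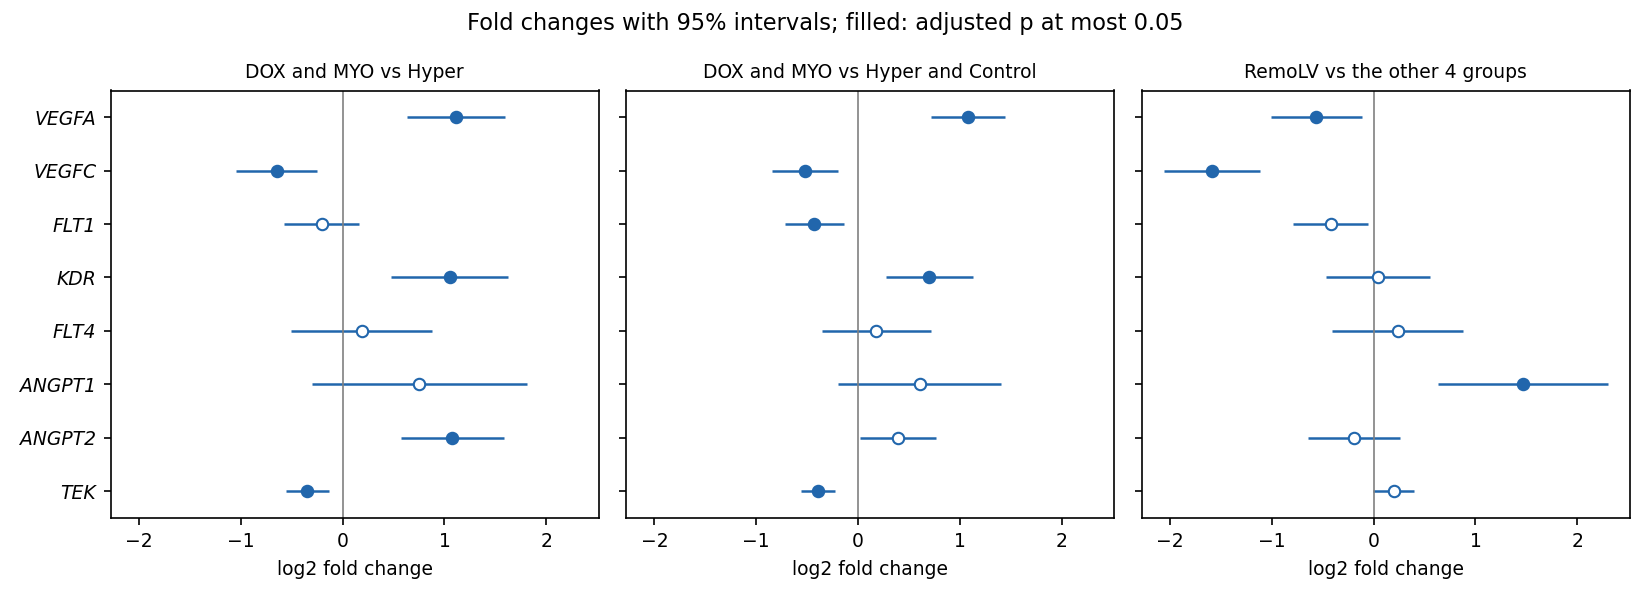
Log2 fold changes (horizontal axis) with 95% intervals of the 8 members in 3 comparisons of sets of libraries by the file labels. Filled points have an adjusted p of at most 0.05. VEGFA lies near 1.1 in both comparisons of DOX and MYO, and VEGFC (-1.59) and ANGPT1 (1.47) lie on opposite sides for RemoLV.

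**Figure D5:**
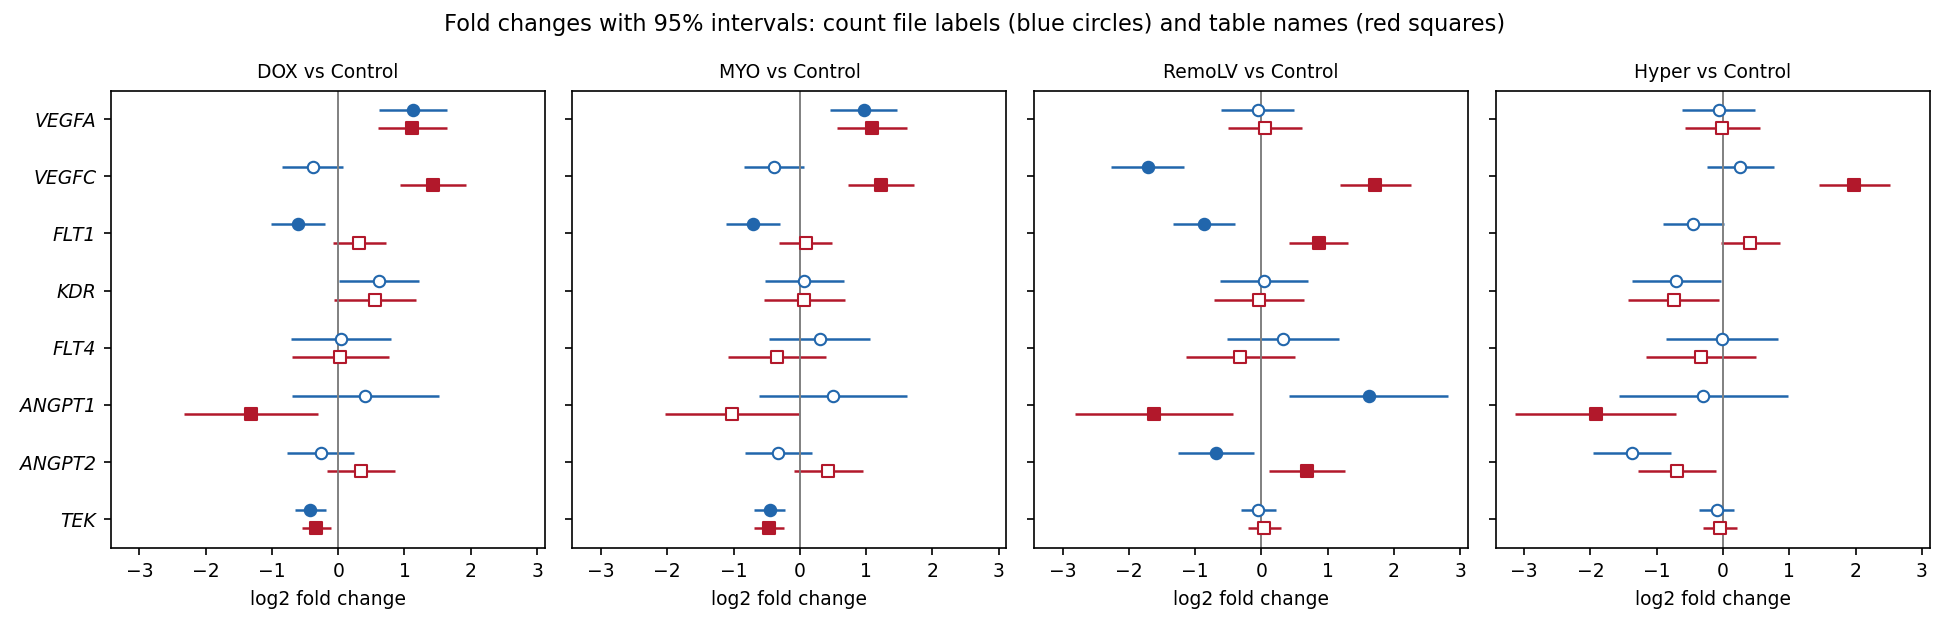
Log2 fold changes (horizontal axis) with 95% intervals of the 8 members against Control, with the labels of the count files (blue circles) and the names of the authors' table (red squares). Filled symbols have an adjusted p of at most 0.05. VEGFA and TEK give nearly the same values under both for DOX and MYO, while VEGFC, FLT1, ANGPT1 and ANGPT2 change sign for DOX. For RemoLV vs Control all 8 members change sign, because the table names exchange these sets of libraries.

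Proteins that work with the members were taken from a list of 10 partners: VEGFD, the neuropilins NRP1 and NRP2, TIE1, ANGPT4, the receptor phosphatase PTPRB, PLXND1, SVEP1, CCBE1 and ADAMTS3. For DOX and MYO vs Hyper and Control 6 were higher and 2 lower with edgeR, where 50.7% of all genes were called, with a median of 0.56 against 0.03 for all genes tested. The co-receptors NRP1 (0.57 ± 0.10, adjusted p = 1.74e-04) and NRP2 (0.56 ± 0.13, adjusted p = 0.00134) were higher, as was TIE1, the orphan partner of TEK (0.62 ± 0.11, adjusted p = 1.08e-04). NRP1 was at 156 to 243 CPM in DOX and MYO and at 115 to 155 in Hyper and Control, without overlap, and RemoLV held 166 to 195 CPM. PLXND1, a semaphorin receptor of endothelium, was highest of the list (1.42 ± 0.18, adjusted p = 7.01e-06). PTPRB, which dephosphorylates TEK and KDR, was lower (-0.83 ± 0.11, adjusted p = 5.45e-06), and so was SVEP1 (-0.47 ± 0.17, adjusted p = 0.0297). TIE1 was higher and TEK lower between the same libraries with TMM, while with library totals TEK was at -0.04 (adjusted p = 0.728). For RemoLV vs the other 4 groups 3 partners were higher and 1 lower, 4 of 10 where 40.2% of all genes were called: ANGPT4 (0.94, adjusted p = 0.0280), SVEP1 (0.84, adjusted p = 0.00245) and VEGFD (0.64, adjusted p = 0.0367), with PTPRB lower (-0.70, adjusted p = 6.57e-04). In that comparison 5 of 10 endothelial markers tested were lower and 1 higher, with a median of -0.40, and their part in PTPRB was not tested. VEGFD, the close relative of VEGFC, was at 14.4 to 17.3 CPM in RemoLV, where VEGFC was lowest.

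Counts of the lists below for DOX and MYO vs Hyper and Control are descriptions, to be read beside the 50.7% of all genes called there. Of 23 tested signal transducers, 10 were higher and 5 lower. The lipid kinase subunits went in opposite directions, with PIK3CD higher (1.09, adjusted p = 0.00132) and PIK3CA (-0.70, adjusted p = 2.23e-05) and PIK3R1 (-0.80, adjusted p = 6.62e-05) lower. Of 11 tested genes known to respond to VEGF or FOXO1 in endothelium, 4 were higher and 1 lower. ESM1, a secreted product of endothelial tip cells, was higher both there (1.36, adjusted p = 9.37e-04) and for RemoLV vs the other 4 groups (2.15, adjusted p = 9.72e-06). VEGFA in RemoLV did not differ detectably from Control (-0.06, adjusted p = 0.874) or from Hyper (0.01, adjusted p = 0.981). RCAN1, a calcineurin-dependent gene, was lower for RemoLV (-1.81, adjusted p = 0.00196).

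VEGFA is a target of HIF-1, and 13 other HIF-1 targets were tested beside it. For DOX and MYO vs Hyper and Control 4 were higher and 2 lower, with a median of 0.14. HK2, the hexokinase of insulin-responsive muscle, was higher (1.14, adjusted p = 9.85e-04), as was PFKFB4 (0.70, adjusted p = 1.25e-04), and PDK1 was lower (-0.63, adjusted p = 6.18e-04). Of 24 tested genes of other vascular growth factor systems, 8 were higher and 5 lower. The Notch ligand JAG1 was higher (0.66, adjusted p = 5.94e-05) and HGF lower (-1.10, adjusted p = 8.33e-04). Of the 10 endothelial markers tested, 3 were higher and 2 lower, with a median of 0.09 against 1.08 for VEGFA.

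Over the 19 libraries, whose groups, depth and scaling the genes share, the level of VEGFA was most like that of IRS2 (r = 0.906), YIF1B (0.900) and EFHD2 (0.888), with 0.790, 0.576 and 0.554 once group means were removed. TEK was most like REEP3 (0.903), CCPG1 (0.894) and TXLNG (0.887). VEGFC was most like INHBB (0.923), TNNC1 (0.919) and AHSA1 (0.909), and FLT1 like PPP2CA (0.899), CLOCK (0.876) and REXO2 (0.870). KDR was most like UPP1 (0.875), SOAT1 (0.870) and NCAPD2 (0.859), and FLT4 like GRB2 (0.752), DDAH1 (0.751) and CGNL1 (0.709). For ANGPT1 the nearest were AASDHPPT (0.837), IFTAP (0.834) and TCEAL8 (0.830), and for ANGPT2 SLC6A9 (0.822), TUBB4A (0.766) and LRRC66 (0.762). Among the members, VEGFA and TEK were the most opposed pair (r = -0.755, and -0.162 once group means were removed), and KDR and FLT1 were nearly unrelated over all libraries (0.179) but ran together within groups (0.719).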

How the data were processed

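Poly(A) RNA of 19 myocardial samples was sequenced as read pairs. The authors aligned the reads to Sscrofa11.1 with STAR, counted them per Ensembl gene with HTSeq 0.11.1 and deposited raw counts per library without normalization. The Ensembl release is not given in the sources used here. A series table of 14744 genes holds log2-scale expression that the authors made from these counts, used here only for gene symbols and to match sample names, and 8 columns of their DESeq2 comparisons, which were not used. Symbols were joined to counts by Ensembl identifier, and lengths and gene starts are of RefSeq models, which differ from the Ensembl models counted.

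Counts were scaled with TMM, filtered with filterByExpr and tested with the quasi-likelihood test of edgeR 4.0.16 in R 4.3.3, in 1 model of 5 groups without a block. Benjamini-Hochberg adjustment covered all 13552 genes tested. Log2 CPM used a prior count of 2, and a call was an adjusted p of at most 0.05. Where a sentence gives an adjusted p, it is from edgeR unless DESeq2 (1.42.0) is named. Ranges, ratios and correlations were computed in Python 3.11.15 (numpy 2.4.6, pandas 2.3.3, scipy 1.17.1). The procedure was tested on simulated data. At a true log2 fold change of 1 it recovered 63.3% of the changed genes for DOX vs Control and 54.3% for RemoLV vs Control. At 2 it recovered 93.5% and 89.9%.

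The members and the gene lists were chosen with earlier results of these data known. Named genes were every member, of each list up to 2 genes with the largest positive and 2 with the largest negative fold change among those called in a comparison, the other partners (chosen after their values were seen), and the 3 genes most correlated with each member. Alternatives were another scaling (size factors of DESeq2, or library totals), other filters, DESeq2, the replicate number as a block, the table names (for RemoLV vs the other 4 groups and DOX and MYO vs Hyper and Control the sets of libraries were held fixed, so that these 2 do not test the naming), fits without the RemoLV or without the drug libraries, and leaving out each library in turn.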

Additional observations from a re-analysis of the deposited data

Results flagged for a closer look

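In 16 groups of 5 libraries (8 members in DOX and in MYO), 4 libraries stood apart from the other 4 of their group by Dixon's 95% criterion, where chance flags about 1 group in 20. For VEGFC, DOX1 was at 11.61 CPM against 7.09 to 8.40 in the rest of DOX. For FLT1, DOX5 was at 51.59 CPM against 84.9 to 95.4, and MYO2 was at 93.73 CPM against 69.2 to 73.2 in the rest of MYO. For KDR, MYO5 was at 130.5 CPM against 60.7 to 78.4. DOX5 is 1 of the libraries that the authors' table names for the other drug group. Groups of 3 were not examined in this way.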

How the results depend on the processing

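VEGFA kept its call in every alternative run for DOX and for MYO vs Control and for DOX and MYO vs Hyper or vs Hyper and Control. Scaling by library totals reversed TEK for DOX vs Control (0.0196, adjusted p = 0.908) and for RemoLV vs Control (0.48, adjusted p = 0.00668), and changed the members called to 2 for DOX vs Control (46.7% of all genes), 1 for MYO vs Control (46.1%), 3 for RemoLV vs Control (53.2%), 5 for RemoLV vs Hyper (37.5%), 3 for DOX and MYO vs Hyper (34.3%) and 3 for DOX and MYO vs Hyper and Control (54.6%). That scaling moved the median of all genes by 0.25 to 0.50 on the log2 scale in the 7 comparisons with calls, by 0.42 for DOX vs Control, where all-gene calls went from 2842 higher and 2862 lower to 5622 and 705. The table names reversed VEGFC (1.43 for DOX, 1.23 for MYO and 1.72 for RemoLV vs Control), FLT1 (0.32, 0.0881 and 0.86), ANGPT1 (-1.31 for DOX and -1.62 for RemoLV) and ANGPT2 (0.68 for RemoLV), and gave 2 members for Hyper vs Control, where they called 35.8% of all genes, and 0 for RemoLV vs Hyper, where they called 0.0%. For RemoLV vs Control they changed the sign of all 8 members, because they exchange these libraries. Requiring 10 counts in every library removed ANGPT1 and left 2 members for RemoLV vs Control (49.2% of all genes), and DESeq2 gave 1 for Hyper vs Control (2.29%). Leaving out 1 library gave 2 to 5 members for DOX vs Control (27.4 to 44.7% of all genes) and for MYO vs Control (28.1 to 45.8%). It gave 2 to 4 for RemoLV vs Control (35.7 to 52.8%), 0 to 3 for Hyper vs Control (0.0 to 18.4%) and 1 to 4 for RemoLV vs Hyper (28.2 to 39.3%). For the sets of libraries it gave 3 to 5 for DOX and MYO vs Hyper (18.3 to 36.4%), 2 to 4 for RemoLV vs the other 4 groups (29.7 to 46.2%) and 4 to 6 for DOX and MYO vs Hyper and Control (43.7 to 52.3%). The replicate block left 3 of 8 members for DOX and MYO vs Hyper and Control (43.2% of all genes), with FLT1 at -0.34 (adjusted p = 0.0883) and KDR at 0.63 (adjusted p = 0.0528). The block also lost FLT1 for DOX vs Control (-0.53, adjusted p = 0.0562) and ANGPT2 for RemoLV vs Control (-0.66, adjusted p = 0.0747). Its numbers do not pair the samples: over 32 pairs with the same number, correlations of deviations ran from -0.246 to 0.242 with a median of 0.007. The cause of these changes was not tested, apart from the scaling and the exchanged names themselves. Depth limits ANGPT1 (6 to 66 counts) and FLT4 (30 to 111 counts).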
